A study of Homo sapiens with 4 samples.

Results

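The genes described here were the expressed protein-coding genes with a single exon, apart from some families and single genes left out by symbol. They were the RefSeq protein-coding genes with 1 exon in the count table and with at least 400 read pairs summed over the 4 samples. Left out by symbol were zinc finger (ZNF), protocadherin (PCDH), histone, olfactory receptor (OR), Gag-derived (RTL and PNMA), TIGD, TSPYL, ZXD and IFT70 genes, and GSPT2, TMEM185B, TAF7, RANBP6, KLHL9, KBTBD6, KBTBD7, RRAGA, JRK, JRKL and CENPB, which together removed 31 genes that met the other criteria. This gave 203 members of 28775 genes in the table, or of 1047 single-exon protein-coding genes at any count. The choice used the structure, the summed count and the names of the genes and not the genotype, but the names left out included every single-exon protein-coding gene with at least 400 read pairs that passed the test between genotypes (15 of the 31). The count of 0 called members given below is thus partly fixed by that choice.

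Most human genes are interrupted by introns, and splicing helps their transcripts to be processed, exported and translated. Single-exon genes do without it. Many of them arose by reverse transcription of a spliced mRNA and its insertion elsewhere in the genome (retrocopies), others are compact genes of quickly adjusted regulators such as JUN, ID1 and the inducible HSP70 genes, and the protein-coding genes of mitochondrial DNA also have no introns. MORC2 is an ATPase that compacts DNA in vitro. It works with the HUSH complex, a silencing complex known to act on retroelements and on long transcribed units that lack introns.

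RNA was measured in HEK293T cells, a line of human embryonic kidney cells that carries the SV40 large T antigen. The 2 MORC2 KO samples were bulk populations of Cas9-edited cells and not single clones, 1 for each of 2 guide RNAs (KO1 with gRNA 1 and KO2 with gRNA 2), and they were compared with 2 unedited WT samples (WT1 and WT2). The genotype of each KO sample was thus tied to its guide RNA, and p-values measure only the spread between these samples. Poly-A RNA was read as 65-base pairs, and each library held between 53970043 and 64312514 counted read pairs.

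MORC2 itself was at 51.2 and 55.0 CPM (read pairs scaled to a common library size) in KO1 and KO2 and at 86.2 and 87.7 CPM in WT1 and WT2, a log2 fold change of -0.71 ± 0.06 (SE; edgeR, adjusted p = 1.37e-04). The summed level of 6 HEK293T marker genes lay between 1205 and 1238 CPM in the 4 samples. Most of it came from IRS4 (475 to 503 CPM) and VIM (547 to 585 CPM), while PAX2 was at 1.15 to 1.60 CPM. Marker lists of blood, skin, liver and fibroblast cells summed to at most 4.05 CPM. Olfactory receptor genes, which these cells should not use, gave 0.0046 to 0.0057 CPM per kb, far below the 0.362 CPM per kb of the lowest member. KO1 and KO2 differed from each other by a median of 0.12 log2 units over all tested genes (0.107 over the members), and WT1 and WT2 by 0.076. In bulk RNA, fewer cells with a transcript and less transcript per cell cannot be told apart.

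No member passed the test between MORC2 KO and WT. All 203 members were among the 16675 genes tested with the quasi-likelihood test of edgeR, and 0 were called higher and 0 lower at an adjusted p under 0.05. Over all tested genes, 98 were called higher (0.588%) and 5 lower (0.03%). At an unadjusted p under 0.05, 46 members were higher in MORC2 KO (22.7%, against 8.14% of all tested genes) and 12 were lower (5.91%, against 6.17%). Of the 46, 9 were mitochondrial genes, which are not independent of each other. Among the 190 nuclear members, 37 were higher and 12 lower, with a median log2 fold change of 0.032. DESeq2 called 4 members higher, against 0.748% of all genes, and 0 lower, against 0.111%. At an unadjusted p under 0.05 it counted 24 and 10, without a share over all genes to set beside them. The 4 members called by DESeq2 were C11orf96, PURB, FOXE1 and ND6. Both KO samples lay above both WT samples for 72 members (35.5%, against 24.1% of all genes) and below them for 36 (17.7%, against 23.4%).

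The log2 fold changes of the members ran from -0.60 to 0.67 with a median of 0.042, against 0.0054 over all tested genes and -0.013 over the 11562 multi-exon protein-coding genes with at least 400 read pairs. A positive value was found for 129 members (63.5%, against 51.5% of all tested genes and 45.7% of the multi-exon genes), and a change beyond 0.5 in either direction for 6 (2.96%, against 6.59% of all tested genes, which include genes with few read pairs, and 0.761% of the multi-exon genes with at least 400 read pairs). The median standard error of a member was 0.082, so that a difference of the size of the median could not be resolved for single genes. Taking each KO sample against each WT sample, the median of the members was 0.050 for KO1 and WT1, 0.063 for KO2 and WT1, 0.037 for KO1 and WT2 and 0.022 for KO2 and WT2, and for the 190 nuclear members it was -0.0034 in the last of these. The 31 single-exon genes left out by name had a median of 0.28.

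**Figure D1:**
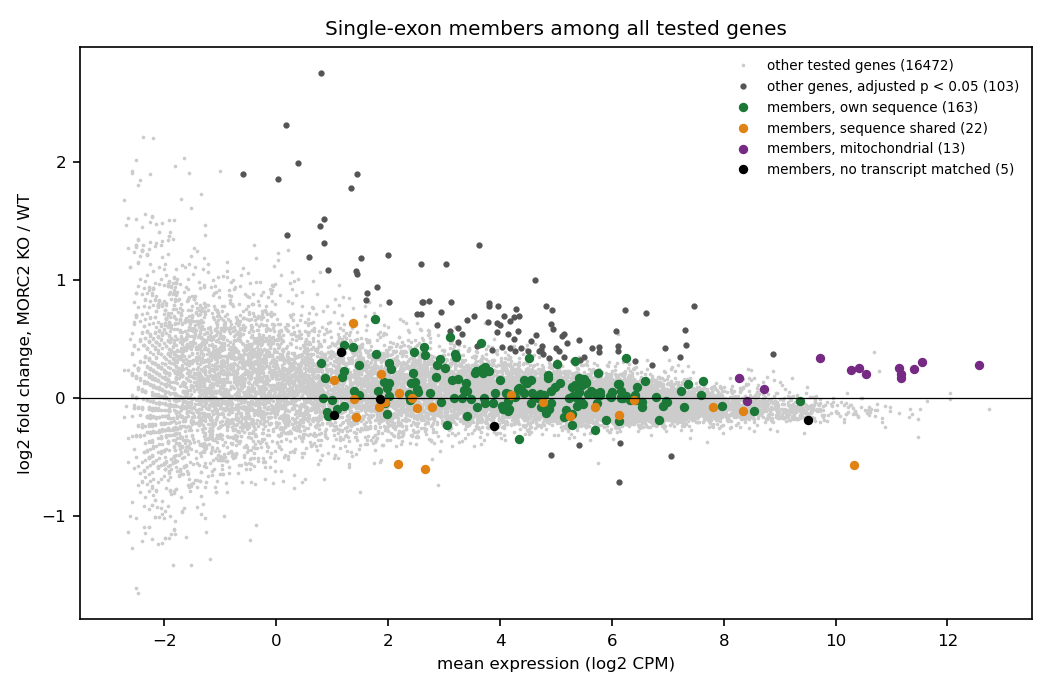
Log2 fold change of MORC2 KO over WT (vertical axis) against mean expression in log2 CPM (horizontal axis) for 16675 tested genes. Members are coloured by class and lie close to 0 apart from a few, while the dark grey points are the 103 genes with an adjusted p under 0.05, none of which is a member.

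The members fell into 4 classes by how far a read can be placed on them. A member was taken as sharing its sequence when at least 10% of its 65-base windows occurred in transcripts of other genes (GENCODE 29). By this measure 163 nuclear members had sequence of their own, 22 nuclear members shared theirs, 13 members were mitochondrial and 5 had no matched transcript. Of the mitochondrial members, 7 also shared at least 10% of their windows with other genes, among them COX1 with 41.1%. The count table kept reads that fit several places, so the values of the sharing genes are uncertain between the copies. Exons of 30 members overlapped exons of other genes, over more than 10% of the length for 12 of them (GPR27, FOXD3, FUT4 and CEBPB among them), and read pairs assigned to several genes there were left uncounted whatever their strand. Among the members with sequence of their own, 35 were higher and 7 lower at an unadjusted p under 0.05, with a median log2 fold change of 0.046. Among the 22 nuclear sharing members, 1 was higher and 3 were lower at that threshold, with a median of -0.073. Over all tested genes, 8.14% were higher and 6.17% lower at that threshold.

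The member with the smallest p was C11orf96, a single exon of 1242 bases on chromosome 11 (chr11:44097987-44099228, plus strand, T2T-CHM13v2.0). It was at 13.5 CPM in KO1, 15.5 in KO2, 10.3 in WT1 and 10.8 in WT2. Both KO values were above both WT values, with a log2 fold change of 0.46 ± 0.09 (adjusted p = 0.0508). FOXE1, a forkhead transcription factor of thyroid development, was at 9.37 and 10.7 CPM in KO1 and KO2 against 6.84 and 7.20 in WT1 and WT2, a log2 fold change of 0.51 ± 0.11 (adjusted p = 0.0556). GPR27, an orphan G protein-coupled receptor, stood at 42.7 and 46.5 CPM against 34.7 and 37.1, a log2 fold change of 0.31 ± 0.07 (adjusted p = 0.0678). In C11orf96, FOXE1 and GPR27 alike, KO2 was the highest sample and KO1 the next. That both WT samples lay below was a condition for naming them.

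C17orf100 had the largest positive log2 fold change of the members, 0.67 ± 0.15, from 4.06 and 4.16 CPM in KO1 and KO2 to 2.74 and 2.41 in WT1 and WT2 (adjusted p = 0.0763). TUSC1, a tumour suppressor candidate, was at 34.7 and 36.2 CPM against 27.9 and 30.0 (adjusted p = 0.0877). These 5 genes were the members below an adjusted p of 0.10 (2.46%, against 0.882% of all tested genes called higher at that threshold). PURB, which binds purine-rich single-stranded DNA and RNA, was at 79.7 and 90.3 CPM against 72.2 and 62.4 in an exon of 9235 bases (log2 fold change 0.34 ± 0.08, adjusted p = 0.103). Its close relative PURA was at a log2 fold change of 0.10 ± 0.06. LCMT2, an enzyme that completes the wybutosine base of phenylalanine tRNA, stood at 26.98 and 24.1 CPM against 19.2 and 21.3, and here KO1 was the highest sample. FOXD3, a forkhead factor of the early embryo and the neural crest, was at 10.2 and 10.4 CPM against 7.55 and 8.32 (log2 fold change 0.38 ± 0.10, adjusted p = 0.146), with the KO values close together.

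The promoter stretches of the first 3 of these genes with an entry in the RefSeq table (GRCh38.p14) are shown because they were the genes closest to the threshold with a promoter on hand. They are the 250 bases before the start, with the GC box (GGGCGG, or CCGCCC on the other strand) in capitals, and FOXE1 lies at chr9:97852976-97853225 on the plus strand, TUSC1 at chr9:25678445-25678694 on the minus strand and PURB at chr7:44885531-44885780 on the minus strand.
FOXE1: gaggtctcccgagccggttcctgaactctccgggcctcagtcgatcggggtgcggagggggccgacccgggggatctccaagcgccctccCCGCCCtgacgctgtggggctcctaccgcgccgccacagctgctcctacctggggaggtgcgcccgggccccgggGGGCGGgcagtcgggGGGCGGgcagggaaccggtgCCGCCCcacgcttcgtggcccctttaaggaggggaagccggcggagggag
TUSC1: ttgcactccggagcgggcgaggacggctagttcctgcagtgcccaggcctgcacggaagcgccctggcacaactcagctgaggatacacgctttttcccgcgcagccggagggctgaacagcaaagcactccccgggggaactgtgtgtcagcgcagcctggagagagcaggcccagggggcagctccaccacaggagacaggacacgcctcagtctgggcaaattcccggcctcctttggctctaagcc
PURB: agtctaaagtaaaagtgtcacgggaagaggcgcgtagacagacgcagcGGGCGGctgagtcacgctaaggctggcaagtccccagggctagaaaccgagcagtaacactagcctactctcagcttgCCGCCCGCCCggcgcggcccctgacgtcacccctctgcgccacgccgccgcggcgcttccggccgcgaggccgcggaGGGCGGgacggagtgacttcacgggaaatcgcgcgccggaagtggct
FOXE1 held 4 matches and 26 CpG dinucleotides, PURB 4 matches (2 of them overlapping) and 32 CpG, and TUSC1 no match and 14 CpG. Of the 203 members, 153 had an entry, and 74.5% of those held a GC box in the 300 bases from 250 before to 50 after the start, against 56.3% of all 22199 protein-coding promoters of that length. The share was 80% among the 30 matched members that were higher at an unadjusted p under 0.05 and 75% among the 8 that were lower. The median number of CpG was 26 in the members and 21 in all promoters.

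**Figure D2:**
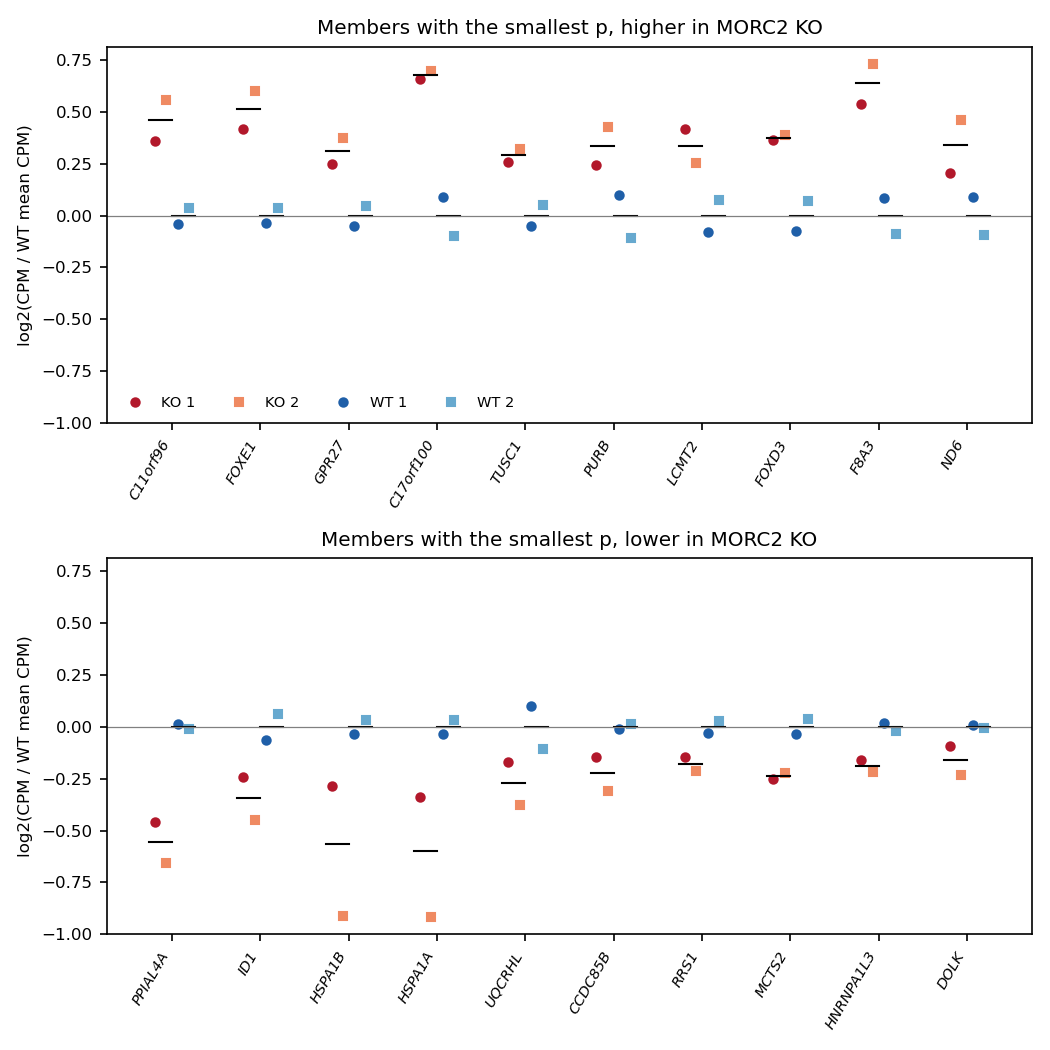
Each sample's level relative to the mean of the WT samples (log2 of the CPM ratio, vertical axis) for the 10 members with the smallest p and no overlap between genotypes in each direction. Points are single samples and the black lines are the means of 2. In the upper panel both KO samples lie above both WT samples, and the lower panel shows the reverse, with KO2 far below KO1 for HSPA1A and HSPA1B.

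Among the members that were lower in both KO samples and had sequence of their own, the smallest p belonged to ID1, an inhibitor of basic helix-loop-helix transcription factors. ID1 was at 19.2 CPM in KO1, 16.6 in KO2, 21.8 in WT1 and 23.7 in WT2, a log2 fold change of -0.34 ± 0.09 (adjusted p = 0.122). CCDC85B, a coiled-coil protein, was at 37.9 and 33.8 CPM against 41.5 and 42.2 (log2 fold change -0.22 ± 0.07, adjusted p = 0.197). RRS1, which helps to assemble the large ribosomal subunit, was at 56.9 and 54.3 CPM against 61.7 and 64.3 (log2 fold change -0.18 ± 0.06, adjusted p = 0.229). DOLK, the kinase that makes dolichol phosphate for protein glycosylation, was at 35.0 and 31.8 CPM against 37.5 and 37.1 (adjusted p = 0.307). In ID1, CCDC85B, RRS1 and DOLK alike, KO2 was the lowest sample. That their groups did not overlap was a condition for naming them.

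HSPA1B, PPIAL4C and HSPA1A, in this order, had the widest gaps between the KO samples on the log2 scale, and HSPA1A and HSPA1B encode the stress-inducible HSP70 chaperone. HSPA1B was at 1255 CPM in KO1, 813 in KO2, 1495 in WT1 and 1566 in WT2. HSPA1A was at 6.07 and 4.06 CPM in KO1 and KO2 against 7.48 and 7.85 in WT1 and WT2. KO1 lay below both WT samples and KO2 far below KO1, and the log2 fold changes were -0.57 ± 0.14 (adjusted p = 0.134) for HSPA1B and -0.60 ± 0.16 (adjusted p = 0.147) for HSPA1A. Without KO2 the value of HSPA1B was -0.28, and without KO1 it was -0.91. Summed over both genes, KO1 was at 82% and KO2 at 53.1% of the WT mean of 1538 ± 50.4 CPM (SD, n = 2).

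The levels of HSPA1A and HSPA1B cannot be read apart. Their coding sequences have 1919 identical bases of 1923, and 71.8% of the 65-base windows of HSPA1A and 70.7% of those of HSPA1B occurred in the other gene. The 65 bases in the middle of both coding sequences (chr6:31816686-31816750 for HSPA1A and chr6:31828880-31828944 for HSPA1B, plus strand, GRCh38) are shown because a read from there fits both genes:
HSPA1A and HSPA1B: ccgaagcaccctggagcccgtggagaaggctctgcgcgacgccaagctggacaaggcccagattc
The window around the first differing base (chr6:31817434-31817498 and chr6:31829628-31829692) shows the single base, in capitals, by which a read could be placed:
HSPA1A: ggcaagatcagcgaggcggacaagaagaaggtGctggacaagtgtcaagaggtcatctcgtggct
HSPA1B: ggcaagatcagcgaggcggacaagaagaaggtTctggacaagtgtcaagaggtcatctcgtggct
The table nevertheless gave 1494 read pairs to HSPA1A and 301073 to HSPA1B over the 4 samples, and the ratio of HSPA1B to HSPA1A was 207, 200, 200 and 199 in KO1, KO2, WT1 and WT2. With a ratio this constant, the counts hold 1 signal for the pair and cannot show whether HSPA1A itself changed.

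The 250 bases before the start of each gene (chr6:31815293-31815542 and chr6:31827488-31827737, plus strand, GRCh38.p14) are shown with the core of the heat shock element (GAANNTTC, which reads the same on both strands) in capitals.
HSPA1A: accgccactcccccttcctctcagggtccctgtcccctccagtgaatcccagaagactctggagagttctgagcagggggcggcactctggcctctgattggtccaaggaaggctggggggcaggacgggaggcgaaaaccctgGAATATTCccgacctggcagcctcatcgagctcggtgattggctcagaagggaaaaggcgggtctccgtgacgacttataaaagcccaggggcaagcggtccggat
HSPA1B: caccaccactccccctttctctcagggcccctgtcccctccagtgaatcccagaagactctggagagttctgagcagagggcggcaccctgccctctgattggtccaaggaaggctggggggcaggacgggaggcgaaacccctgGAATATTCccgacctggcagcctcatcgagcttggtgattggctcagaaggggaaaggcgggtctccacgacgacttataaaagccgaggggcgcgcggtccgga
Each held 1 match. This core was found in 5.67% of all protein-coding promoters of 300 bases and in 15 of the 153 matched members (9.8%). The CCAAT box (CCAAT, or ATTGG on the other strand) was found in 44.4% of the members and 34.7% of all promoters, and in all 8 matched members that were lower at an unadjusted p under 0.05. These 8 include both HSPA1 genes, whose promoters resemble each other, and 4 motifs were searched in all. The TATA box (TATAAA, or TTTATA) was found in 12.4% of the members and 9.47% of all promoters.

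The heat shock and protein quality control list held 3 more genes beside the HSPA1 pair. HSPA6, another inducible HSP70, shared 38.7% of its windows and had a log2 fold change of 0.21 ± 0.15 with overlapping groups. DNAJC30, a mitochondrial J-domain protein, was at -0.088 ± 0.076, and RNF113A, a splicing-associated ubiquitin ligase, at 0.0019 ± 0.0727. Of the 5 members of the list, 0 were called, and their median log2 fold change was -0.088, against 0.0054 for all tested genes. At an unadjusted p under 0.05, 2 were lower, against 6.17% of all tested genes. These were HSPA1A and HSPA1B, whose levels cannot be read apart.

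Several of the lower members were retrocopies whose parent genes have introns. PPIAL4A, a cyclophilin A-like gene, was at 3.93 and 3.421 CPM in the KO samples and at 5.45 and 5.36 in WT1 and WT2 (log2 fold change -0.56 ± 0.13, adjusted p = 0.106). Its near copy PPIAL4C was at 2.04 CPM in KO1, 3.09 in KO2, 2.57 in WT1 and 2.61 in WT2, where the groups overlapped and every window of the gene occurred elsewhere. Summed, the pair was at 74.7% of the WT mean in KO1 and 81.4% in KO2. The parent PPIA, which encodes cyclophilin A, was at 753 and 645 CPM against 768 and 788 (log2 fold change -0.15 ± 0.08, adjusted p = 0.389).

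UQCRHL, a copy of the hinge subunit gene UQCRH of respiratory complex III, was at 50.2 and 43.5 CPM against 60.5 and 52.5 (log2 fold change -0.27 ± 0.08, adjusted p = 0.195), and UQCRH was at -0.10 ± 0.06. Windows from the middle of PPIAL4A (chr1:120890034-120890098, plus strand) and UQCRHL (chr1:15807481-15807545, minus strand) are set beside their parents PPIA (chr7:44799726-44799790, plus strand) and UQCRH (chr1:46310178-46310242, plus strand), all on GRCh38, because few differing bases, in capitals, assign a read to one or the other:
PPIAL4A: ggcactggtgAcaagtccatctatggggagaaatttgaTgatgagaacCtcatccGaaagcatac
PPIA: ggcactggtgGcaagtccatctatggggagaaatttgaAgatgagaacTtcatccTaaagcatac
UQCRHL: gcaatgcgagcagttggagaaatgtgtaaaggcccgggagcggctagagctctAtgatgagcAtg
UQCRH: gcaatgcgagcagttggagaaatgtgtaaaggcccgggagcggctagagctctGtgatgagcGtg
The windows differ at 4 bases in the first pair and at 2 in the second, and the aligned coding sequences were 91.5% and 98.5% identical.

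MCTS2, a copy of the translation factor gene MCTS1, was at 13.4 and 13.7 CPM against 15.6 and 16.4 (log2 fold change -0.24 ± 0.08, adjusted p = 0.234), and MCTS1 was at -0.014 ± 0.057. HNRNPA1L3, a copy of the RNA-binding protein gene HNRNPA1, was at 698 and 671 CPM against 790 and 769. Its log2 fold change was -0.19 ± 0.06 (adjusted p = 0.249). The parent HNRNPA1 was lower than its copy, at 571 and 553 CPM against 604 and 596, with a log2 fold change of -0.095 ± 0.063. MCTS2 and HNRNPA1L3 were among the members without a matched transcript, so the windows they share with other genes were not measured. Their levels are thus uncertain between copy and parent. The differences between copy and parent were not tested. F8A3, 1 of 3 X-linked genes for the huntingtin-associated protein HAP40, was the only nuclear sharing member that was higher at an unadjusted p under 0.05. It was at 2.88 and 3.28 CPM against 2.10 and 1.86 (log2 fold change 0.64 ± 0.17, adjusted p = 0.149). It shared 89.6% of its windows with F8A1, which had 7 read pairs in all. Summed over F8A1, F8A2 and F8A3 the level was 3.11 ± 0.29 CPM in MORC2 KO and 2.03 ± 0.13 in WT (SD, n = 2).

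The 13 mitochondrial genes, which encode subunits of the respiratory chain and of ATP synthase, were the most abundant members per length. The 6 highest members were ATP6 at 3959 CPM per kb, COX1 at 3915, COX2 at 3359, COX3 at 2936, ND4 at 2166 and ATP8 at 2032, as means over the 4 samples. The 13 log2 fold changes had a median of 0.24, with 12 of 13 positive and 0 called. At an unadjusted p under 0.05, 9 of the 13 were higher, against 8.14% of all tested genes. Both KO samples were above both WT samples for 6 of the 13 and below for 0. Of all tested genes, 24.1% did not overlap with KO higher and 47.5% did not overlap in either direction. The gene with the smallest p was ND6, the one mitochondrial member on the minus strand, at 858 and 1025 CPM in KO1 and KO2 and 793 and 697 in WT1 and WT2 (log2 fold change 0.34 ± 0.09, adjusted p = 0.153).

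KO2 and WT2 set this pattern. COX1 was at 5830 CPM in KO1 and 7417 in KO2, and at 5751 in WT1 and 5151 in WT2, so that KO1 and WT1 stood close together. KO2 was the highest sample for 11 of the 13 genes and WT2 the lowest for all 13, while KO1 was above WT1 for 6. Summed over the 13 genes, the level was 23922 CPM in KO1, 29459 in KO2, 23974 in WT1 and 21070 in WT2. They are transcribed from shared precursors and thus are not independent of each other. ND3, at 323 and 356 CPM against 392 and 297, was the only one with a negative log2 fold change, -0.022 ± 0.104.

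**Figure D3:**
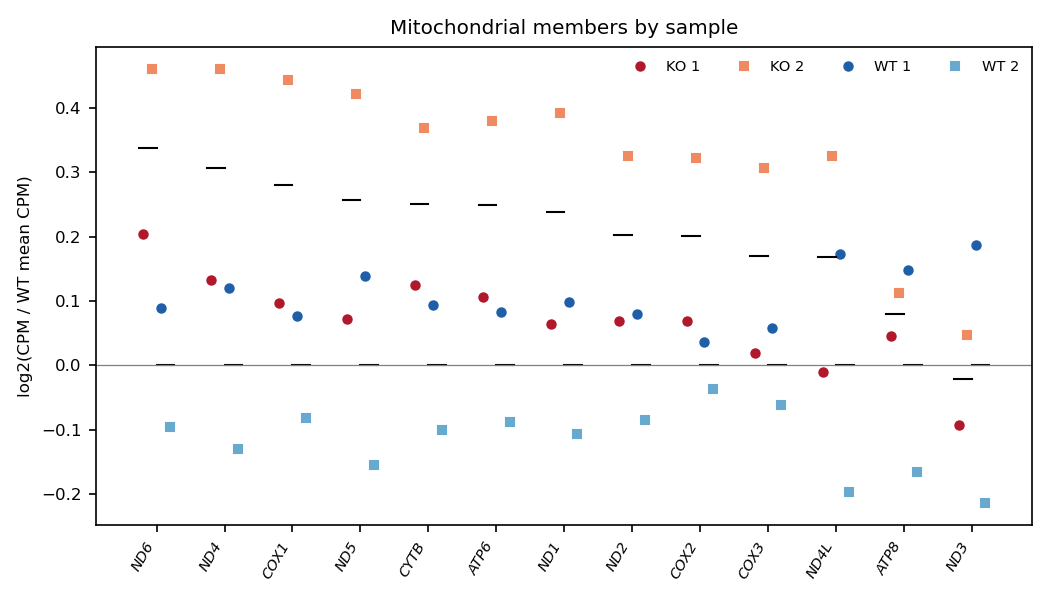
Level of the 13 mitochondrial members in each sample relative to the mean of the WT samples (log2 of the CPM ratio, vertical axis), ordered by log2 fold change. WT2 is the lowest sample in 13 genes and KO2 the highest in 11, and in these 11 KO1 and WT1 lie between them.

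By function, 71 members belonged to 12 lists and 132 to none. The list with the largest median among those with at least 5 members was that of G protein-coupled and Frizzled receptors, at 0.19 for 10 members. Of these, 9 had positive values and 5 were higher at an unadjusted p under 0.05, with 0 called, and both KO samples were above both WT samples for 8, where the shares over all tested genes were 8.14% at an unadjusted p and 24.1% without overlap. GPR27 had the smallest p of this list. The Wnt receptor genes FZD2 and FZD7 were at log2 fold changes of 0.35 ± 0.10 and 0.23 ± 0.08 (adjusted p = 0.183 and 0.258), and the receptor genes P2RY1, for purines, and GPR135 were at 0.21 ± 0.09 and 0.44 ± 0.20. FZD9 went the other way at -0.23 ± 0.11, and FZD1, FZD8, ADRA2C and MC1R lay between 0.045 and 0.17.

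The 5 glycosyltransferase and sulfotransferase genes all had positive values, with a median of 0.14, 3 higher at an unadjusted p under 0.05 and 0 called. Over all tested genes, 51.5% had a positive value and 8.14% were higher at that p. FUT4, which adds fucose to the Lewis X structure, was at 13.5 and 14.2 CPM against 12.5 and 11.4 (log2 fold change 0.21 ± 0.09, adjusted p = 0.308). B3GALT6, which builds the linker of proteoglycans, was at 0.14 ± 0.06, and MGAT2, an enzyme of N-glycan branching and the most abundant of the list, was at 75.03 and 69.7 CPM against 69.3 and 74.3, where the groups overlapped.

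**Figure D4:**
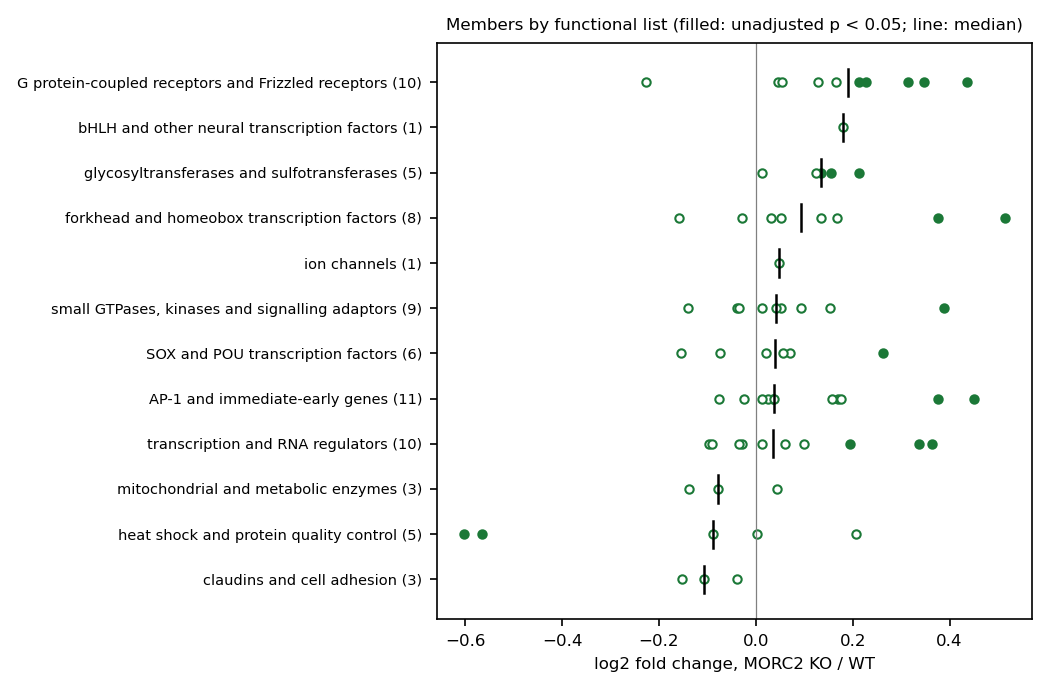
Log2 fold change of MORC2 KO over WT (horizontal axis) for the members in each of 12 functional lists, with the number of members in parentheses. Filled points have an unadjusted p under 0.05 and the vertical lines are medians. These run from -0.11 for the list headed claudins and cell adhesion, which holds no claudin among the members, to 0.19 for the receptor list.

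The transcription factor lists were led by genes already described. Of 8 forkhead genes, 0 were called and 2 (FOXE1 and FOXD3) were higher at an unadjusted p under 0.05. The share over all tested genes was 8.14%, and the median of the list was 0.093. FOXC1, the most abundant forkhead member per length, was at 132 and 118 CPM against 124 and 130 with a log2 fold change of -0.028 ± 0.066. Of the 11 AP-1 and immediate-early genes, 0 were called, with a median of 0.038. At an unadjusted p under 0.05, 3 were higher, against 8.14% of all tested genes. These 3 included the C/EBP genes CEBPB (0.17 ± 0.06, adjusted p = 0.254) and CEBPD (0.45 ± 0.17, adjusted p = 0.283). JUN, the most abundant of this list at 202 CPM per kb, was at 672 and 636 CPM in KO1 and KO2 against 650 and 679 in WT1 and WT2, so that the groups overlapped.

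Of the 6 SOX and POU genes, 0 were called, with a median of 0.039. At an unadjusted p under 0.05, 1 was higher, against 8.14% of all tested genes. That gene was POU3F3, a factor of neural and kidney development, at 12.4 CPM in KO1 and 16.5 in KO2 against 12.3 and 11.8, and its excess came almost wholly from KO2. SOX12 was at -0.074 ± 0.058. Of the 10 transcription and RNA regulators, 0 were called and 3 were higher at an unadjusted p under 0.05, against 8.14% of all tested genes. The 3 were PURB, EID2B (0.36 ± 0.12) and IRF2BPL (0.19 ± 0.07), and the median of the 10 was 0.036. EID1, the most abundant of them per length, was at 130 and 121 CPM against 130 and 126. INSM1, a zinc finger factor of neuroendocrine cells and the only member of the neural list, was at 0.18 ± 0.17.

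Among the 9 genes listed under small GTPases, kinases and signalling adaptors, 0 were called, with a median of 0.042. At an unadjusted p under 0.05, 1 was higher, against 8.14% of all tested genes. It was FRAT1, which binds the kinase GSK3, at 5.72 and 6.60 CPM against 4.99 and 4.42 (log2 fold change 0.39 ± 0.13, adjusted p = 0.231). RHOB, an endosomal GTPase that is also in the immediate-early list, was at 114 and 108 CPM against 108 and 111. The 3 genes listed under claudins and cell adhesion were AMIGO3, RPRML and TMEM158, none of them a claudin. They had a median of -0.11 and the 3 mitochondrial and metabolic enzymes one of -0.078. In either list, 0 were called and 0 reached an unadjusted p under 0.05. AMIGO3 was at -0.11 ± 0.07 and TMEM158 at -0.039 ± 0.085. The mitochondrial methionyl-tRNA synthetase gene MARS2 was at 38.6 and 35.5 CPM against 39.9 and 41.6, and GLUD2, a glutamate dehydrogenase that shares 25.9% of its windows, was at -0.078 ± 0.062. GJD3, a gap junction gene and the only ion channel member, was at 0.048 ± 0.117.

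Long members tended to have positive values. Of the 50 members of at least 4 kb, 38 lay above 0 and 16 were higher, 0 lower, at an unadjusted p under 0.05, around a median of 0.066. Of the 6891 tested genes of that length, 3879 lay above 0, 675 were higher and 251 lower, with a median of 0.018. The 16 included PURB, LCMT2, PGBD4, FZD7, FUT4, P2RY1, POU3F3 and GPR135. Of the 20 members under 1 kb, 4 were higher, all of them mitochondrial, and 5 were lower, with a median of 0.0067. Of the 1282 tested genes under 1 kb, 54 were higher and 166 lower, with a median of -0.042. Over the 190 nuclear members, Spearman's rho of the log2 fold change was 0.287 with exon length, -0.25 with mean expression and 0.0323 with GC content (185 members with a value), and over all tested genes it was 0.0812 with length and -0.292 with mean expression. These correlations are across genes, which share libraries and are not independent replicates.

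Within 100 kb of a gene with an adjusted p under 0.05 there were 3 members (1.48%), a share near the 1.82% of all tested genes. They were FJX1 near TRIM44, MC1R near CENPBD1P and SMIM10 near RTL8B, at log2 fold changes of 0.12, 0.054 and 0.23. At the edge of the count threshold, C19orf73 with 407 and CCDC184 with 418 read pairs were members, while CTAGE1 with 399 and TMEM271 with 393 were not.

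The counts of members rested on single samples. Without KO1, 42 members were called higher and 18 lower, where 9.58% and 11.6% of all genes were called in these directions. Without KO2 the members called were 2 and 1, against 0.72% and 0.132% of all genes. The 46 members higher at an unadjusted p under 0.05 became 56 without KO1 and 35 without KO2, 21 without WT1 and 18 without WT2, and the 12 lower members became 25, 9, 10 and 6 in the same order. All 46 and all 12 kept their sign of log2 fold change with any of the samples left out, as did 135 of the 203 members.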

How the data were processed

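RNA-seq counts of 2 MORC2 KO and 2 WT samples of HEK293T cells were used, grouped by their labels. Alignment to T2T-CHM13v2.0 was done by the authors with Subread 2.0.6, and counting with featureCounts on strict RefSeq genes. The deposited table holds raw counts, 1 per gene and sample, without normalization, and the recorded command counted multi-mapping reads without strand. The deposited exon length was used for values per kb, and 0 columns of other samples were present. Symbols came from RefSeq (GRCh38.p14, 28763 of 28775 genes matched). Member coordinates are on T2T-CHM13v2.0, and the sequences shown are from GENCODE 29 (GRCh38) and RefSeq (GRCh38.p14).

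Genotypes were compared in R 4.3.3 with edgeR 4.0.16, in the older form of its quasi-likelihood test as the authors' version has it, after filterByExpr and with TMM factors. The p-values are two-sided and were adjusted by Benjamini-Hochberg over all 16675 tested genes, and an adjusted p under 0.05 was a call. The SE was obtained by dividing the log2 fold change by the root of its F statistic. CPM values are TMM-scaled, and means carry the SD of 2 samples. The libraries of 53970043 to 64312514 read pairs leave the spread between samples, and not depth, as the limit for most members. Replicates of 1 genotype differed beyond sampling noise (chi-square per degree of freedom of 16.8 in MORC2 KO and 6.56 in WT).

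The members, the 12 functional lists and the tests were chosen with earlier results of these data known. The genes named were MORC2, any member called, the 10 members per direction with the smallest p whose samples did not overlap, the 6 highest per kb, the 3 with the largest difference between KO1 and KO2, and for each list the genes with the smallest p and the highest level. Other genes were named after their values were seen: the remaining genes of the lists, the parents of retrocopies, the mitochondrial genes, the members of at least 4 kb and the neighbours. Alternatives were DESeq2 1.42.0, other scalings and filters, a replicate block and leaving out each sample. Offsets on GC content and length, the crossed block, and counts of members with a sample left out were added after seeing the data.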

Additional observations from a re-analysis of the deposited data

How the results depend on the processing

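MORC2 was lower in MORC2 KO under every alternative run (log2 fold change -0.76 to -0.66), and the median of the members was positive under every one (0.028 to 0.082). The count of 0 members called higher and 0 lower was less stable. Members called higher numbered 4 with DESeq2, 1 with RLE size factors, 1 with library size alone, 18 without a filter on low counts, 5 at an adjusted p under 0.10 and 7 with offsets on GC content and length, and members called lower numbered 6 without the filter and 1 with the offsets. Over all genes, 0.748% were called higher with DESeq2, 0.594% with RLE size factors, 0.654% with library size alone and 0.882% at an adjusted p under 0.10, and calls numbered 463 higher and 182 lower without the filter, and 187 and 34 with the offsets. The newer form of edgeR, loess offsets on abundance and a minimum of 10 counts in every sample called 0 in both directions. With a sample left out, the lone sample of its genotype being assumed to vary like the others, 0 to 42 members were called higher and 1 to 18 lower, the highest counts without KO1. Over all genes, calls numbered 1598 higher and 1936 lower without KO1, 120 and 22 without KO2, 147 and 9 without WT1, and 86 and 14 without WT2. Members at an unadjusted p under 0.05 then numbered 18 to 56 higher and 6 to 25 lower, and 24 higher with DESeq2. The median was 0.082 with library size alone, where that of all genes was 0.045.

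The replicate numbers did not pair the samples (correlation of deviations -0.12), and only 2 numbers exist. A fit with the replicate number as a block called 7 members higher and 5 lower, and 237 and 42 of all genes. With crossed replicate numbers (KO1 with WT2), 32 members were called higher and 11 lower (903 and 809 of all genes), and at an unadjusted p under 0.05 the lower members numbered 19.

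Of 602 alternative values of 43 named members, 476 stayed the same. This meant the same side of 0 and of the threshold or, with a sample left out, within 1 SE. A further 71 passed the threshold, and 45 moved by more than 1 SE with a sample left out. Counted separately, 14 of the 172 values with a sample left out changed sign, some of them by less than 1 SE. With all samples kept, 10 values changed sign, all in genes that were not called. With library size alone, PPIAL4C was at 0.0325, JUN at 0.0152, FOXC1 at 0.0107 and EID1 at 0.0101. With loess offsets JUN was at 0.0642, FOXC1 at 0.0137, EID1 at 0.0133 and GJD3 at -0.0127, and with GC content and length offsets PPIAL4C was at 0.0662 and GJD3 at -0.0419. The causes were not tested.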

Other observations

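Among the single-exon protein-coding genes below the threshold of 400 read pairs and not left out by name, 537 in number, 272 had no read pair and 85 were tested. None was called by edgeR. At an unadjusted p under 0.05, 7 of the 85 were higher, a share near the 8.14% of all tested genes. Of the 85, 0 were lower, against 6.17% of all tested genes. Their median log2 fold change was 0.20, against 0.0054 over all tested genes. Over all tested genes the log2 fold change fell with mean expression (Spearman's rho -0.292). The smallest p of the 85 belonged to VN1R1, a vomeronasal-type receptor gene. It had 110 and 145 read pairs in KO1 and KO2 and 57 in each WT sample (log2 fold change 1.00 ± 0.21, adjusted p = 0.0664). This gene was named after its values were seen.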
